A study of Mus musculus with 4 samples.

Results

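The synaptonemal complex and axis genes are 9 genes that encode structural parts of the meiotic chromosome: Sycp1, Sycp2, Sycp3, Syce1, Syce2, Syce3, Tex12, Hormad1 and Hormad2. They were taken by symbol from the 40999 features listed for the long RNAs, and all 9 were found and passed the filter on low counts, as did 20114 features in all. The gonads came from C57BL/6J wild-type mouse embryos on each day between E11.5 and E14.5, 4 libraries in all with 1 library per time point, so no difference below has a replicate check. Each library was made from a pool of at least 6 male and 6 female gonads out of 2 litters, labelled mixed XX and XY, and values of either sex cannot be told apart. At E11.5 the whole genital ridge with the mesonephros was taken, whereas from E12.5 the gonad was freed of the mesonephros.

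The synaptonemal complex is the protein ladder that joins homologous chromosomes during meiotic prophase. Its lateral elements form along the chromosome axis, where SYCP2, SYCP3 and the HORMA-domain proteins HORMAD1 and HORMAD2 bind, transverse filaments of SYCP1 bridge the gap, and the central element holds SYCE1, SYCE2, SYCE3 and TEX12. In the fetal mouse, germ cells of the ovary enter meiotic prophase in this period, whereas those of the testis do not enter meiosis until after birth.

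The promoter sequence of 3 members is printed because they differ in 2 short motifs: Sycp3 and Tex12 hold both and Sycp2 holds neither. Each line gives the 160 bases before the start site, from RefSeq on GRCm38, 5′ to 3′ on the strand of the gene. Capitals mark CACGTG, the E-box bound by many basic helix-loop-helix factors, and GCGGGAA, a form of the E2F site. The start sites of these 3 genes equal the gene ends in the deposited annotation.
Sycp3, chr10:88459427-88459586, plus strand: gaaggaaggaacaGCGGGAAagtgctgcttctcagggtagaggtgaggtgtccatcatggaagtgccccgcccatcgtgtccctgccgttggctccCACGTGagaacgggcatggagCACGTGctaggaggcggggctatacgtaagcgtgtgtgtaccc
Tex12, chr9:50561269-50561428, minus strand: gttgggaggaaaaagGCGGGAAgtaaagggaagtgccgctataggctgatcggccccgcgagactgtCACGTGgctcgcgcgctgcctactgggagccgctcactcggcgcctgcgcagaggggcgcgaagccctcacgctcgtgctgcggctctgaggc
Sycp2, chr2:178407659-178407818, minus strand: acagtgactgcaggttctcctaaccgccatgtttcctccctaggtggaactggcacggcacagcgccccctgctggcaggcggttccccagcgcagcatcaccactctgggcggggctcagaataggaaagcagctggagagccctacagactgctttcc

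Across the 300-base promoter windows of RefSeq, 250 bases before and 50 after the start site and read on both strands, 5 of the 9 members held CACGTG (Sycp1, Sycp3, Syce2, Tex12 and Hormad1), beside 8.09% of 27025 genes. The motif GCGGGAA was found in 4 of 9 (Sycp3, Syce2, Tex12 and Hormad1), beside 5.29% of all genes. The motif CNCCTCAG was in 4 of 9 (9.12% of all genes), CCAAT in 2 of 9 (41.1%) and the cyclic AMP response element TGACGTCA in 0 of 9 (2.03%). The first base of CACGTG lay 94 bases before the start in Sycp1, 64 and 43 in Sycp3, 93 in Tex12, and 57 and 20 at the upstream start of Hormad1. Syce2 has 2 annotated starts, and both motifs were in the window of the downstream one, with CACGTG 88 bases before it. The 12 member windows held 5 to 33 CpG dinucleotides, with a median of 17.5 beside a median of 7 over 32851 windows. For Sycp1, Syce1, Hormad1 and Hormad2 the RefSeq start lies 205, 191, 74 and 345 bases from the outermost end in the deposited annotation, and the downstream starts of Syce2 and Syce3 lie 147 and 240 bases inside it. These windows lie partly, and that of Hormad2 wholly, within the deposited gene span. The motifs of Syce2 lie within that span, as do the CACGTG matches of Sycp1 and Hormad1. GCGGGAA of Hormad1 lies before it. These matches are a description of letters and were not tested as binding sites.

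The libraries held 25593453 to 31752562 counts of deduplicated molecules. The 18S rRNA gene alone took 40.7% of the counts at E14.5 and 1.03% to 9.06% in the others, and the TMM factor, which scales a library by its bulk of genes, was 0.597 beside 1.10 to 1.25. Levels between libraries are therefore given in TMM-scaled CPM, the share of a scaled library, and levels between genes in the deposited TPM, which divides by exon length. On total counts the median gene was lower by 1.07 on the log2 scale at E14.5 than at E13.5, and on TPM by 1.63, so changes into E14.5 are relative to the other genes. A member was called higher at 2-fold or more with an exact 95% counting interval that left out no change. Intervals cover counting error only. Gonadal somatic markers were present in every library, with a sum of 157.9 to 799.1 TMM-scaled CPM over 7 Sertoli cell genes and 134.6 to 275.3 over 6 pregranulosa cell genes, none of them at 0, and none of 10 housekeeping genes was called at any step on the TMM scale.

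All 9 genes were at their lowest TMM-scaled level at E11.5 and 7 of them at their highest at E14.5. Their summed counts were 375, 1237, 2968 and 2533 from E11.5 to E14.5, which is 10.9, 39.4, 75 and 134.5 TMM-scaled CPM. The exceptions at the top were Syce2 and Hormad2, whose TMM-scaled levels at E13.5 and E14.5 lay within each other's counting intervals. On total counts the sum was lower at E14.5 than at E13.5, as the raw counts show. Sycp1, Syce1 and Hormad1 were highest at E13.5 on total counts and on TPM, as was Tex12 on TPM. Syce2 was lower on TPM at E14.5 (9.18) than at E11.5 (9.42). In a pool of whole gonads, more cells that carry an RNA and more RNA in each such cell cannot be told apart.

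**Figure D1:**
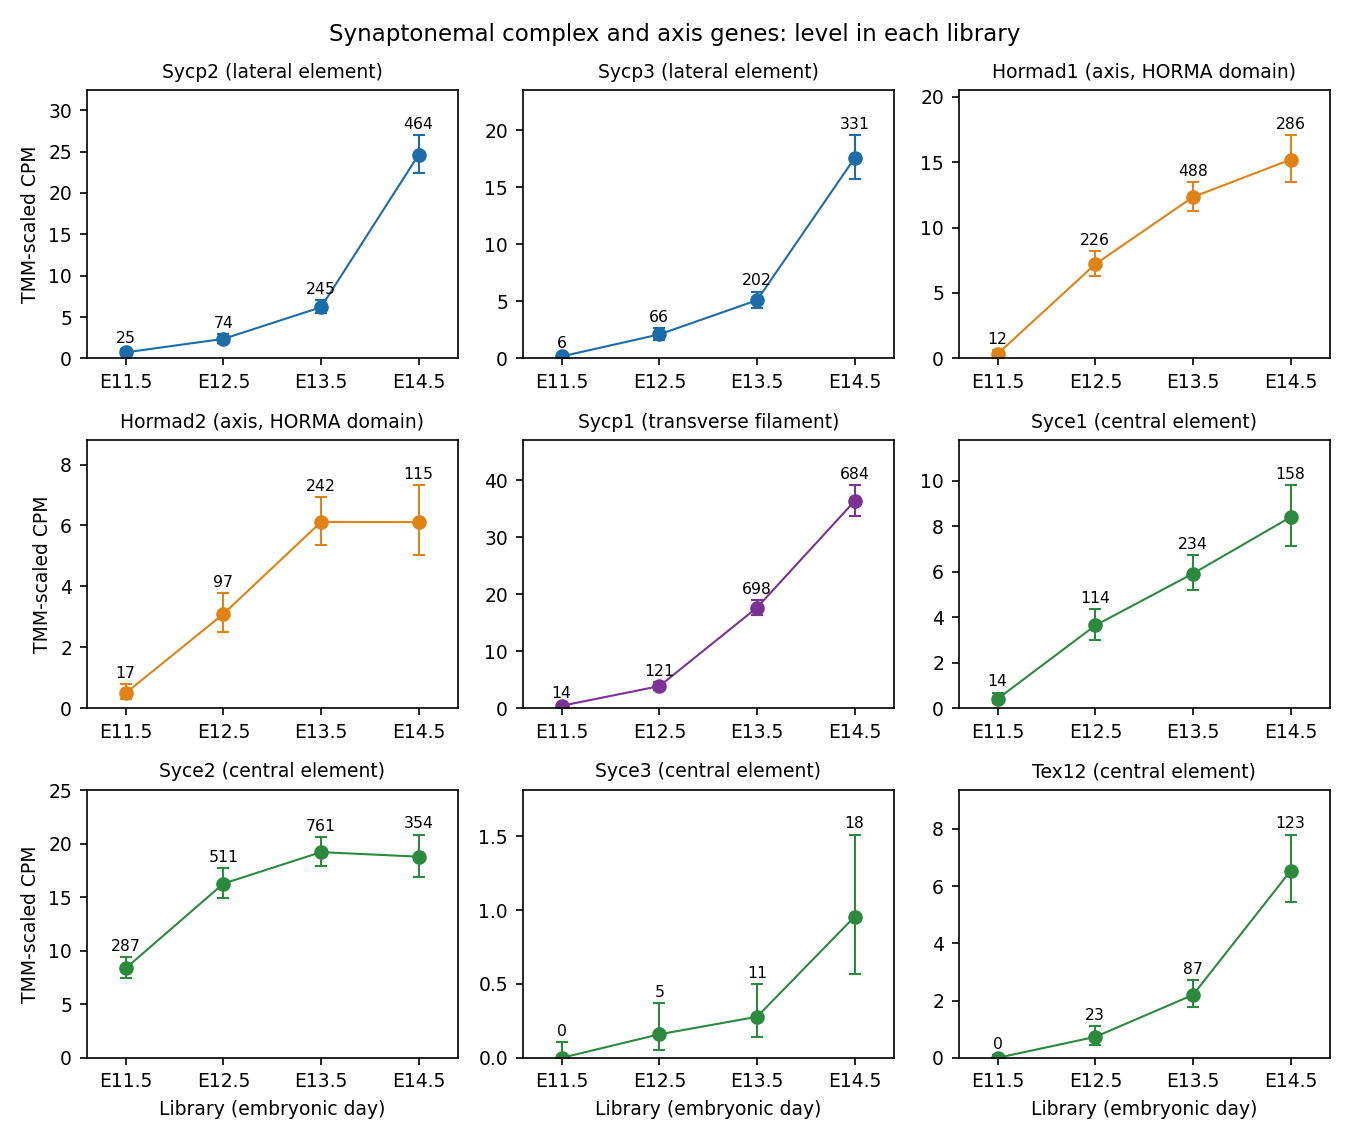
TMM-scaled CPM of each of the 9 genes (y axis, linear, own range) in the 4 libraries (x axis, embryonic day), with the exact 95% counting interval as a bar and the raw count printed above it. Sycp1, Sycp2, Sycp3, Syce3 and Tex12 are more than 2-fold higher at E14.5 than at E13.5, while Syce2 and Hormad2 are level from E13.5 (19.2 and 18.8, 6.12 and 6.11 TMM-scaled CPM); on total counts no member is 2-fold higher at that step and Sycp1 turns to -0.019 on the log2 scale.

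Sycp3 (mm10 chr10:88459587-88473236, plus strand) encodes the main protein of the lateral element. It had 6, 66, 202 and 331 counts in the libraries from E11.5 to E14.5, in that order as in the lists that follow, or 0.175, 2.10, 5.10 and 17.6 TMM-scaled CPM. No 2 neighbouring libraries overlapped in their counting intervals. Its log2 fold change was 3.56 (95% counting interval 2.39 to 5.08) at E12.5 versus E11.5, 1.28 (0.87 to 1.70) at E13.5 versus E12.5 and 1.78 (1.53 to 2.04) at E14.5 versus E13.5. The last step was 0.72 on total counts and 0.17 on TPM.

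Sycp2 (mm10 chr2:178345295-178407658, minus strand), the lateral element partner of SYCP3, had 25, 74, 245 and 464 counts and 0.730, 2.36, 6.19 and 24.6 TMM-scaled CPM. Its log2 fold change at E12.5 versus E11.5, 1.69 (1.02 to 2.41), was the smallest of the 4 axis genes, and that at E14.5 versus E13.5, 1.99 (1.77 to 2.22), the largest of the 9 members. On total counts the value at E14.5 versus E13.5 was 0.93 and on TPM 0.37. The step before it, E13.5 versus E12.5, was 1.39 (1.012 to 1.79). Within the libraries, where no scaling enters, the TPM ratio of Sycp3 to Sycp2 was 1.25 at E11.5 and then 4.64, 4.29 and 3.71. The ratio changed 3.69-fold (1.37 to 11.7) at the first step, whereas the intervals of the later changes, 0.925-fold (0.621 to 1.38) and 0.865-fold (0.680 to 1.10), held 1.

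Hormad1 (mm10 chr3:95559603-95587945, plus strand) encodes a protein of the unsynapsed axis that is needed for homolog pairing and break formation. Its counts were 12, 226, 488 and 286, or 0.350, 7.2, 12.3 and 15.2 TMM-scaled CPM. The largest daily change of any member with counts in both libraries was its step at E12.5, 20.4-fold (11.55 to 40.4). Thereafter its log2 fold change was 0.78 (0.55 to 1.0096) and 0.30 (0.085 to 0.51), under 2-fold at both steps, and the second turned to -0.76 on total counts and -1.32 on TPM.

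Hormad2 (mm10 chr11:4345801-4441427, minus strand), which acts in the checkpoint for unsynapsed chromosomes, had 17, 97, 242 and 115 counts and 0.496, 3.09, 6.12 and 6.11 TMM-scaled CPM. Its first step was 6.19-fold (3.70 to 11.1) and its second 1.98-fold (1.56 to 2.53), just under the 2-fold limit that it passed on total counts and on TPM. From E13.5 to E14.5 it was 0.999-fold (0.793 to 1.25) on the TMM scale, while on total counts its log2 fold change was -1.06. Hormad1 and Hormad2 kept a TPM ratio of 3.70, 3.21 and 3.95 from E12.5 on, and both later changes of this ratio had intervals that held 1.

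From E12.5 on, the ratio of lateral element genes to HORMA-domain genes climbed within the libraries, most at the last step. The TPM ratio of Sycp3 to Hormad1 was 0.855, 0.499, 0.708 and 1.98, a 1.42-fold change (1.02 to 1.98) from E12.5 to E13.5 and a 2.79-fold change (2.21 to 3.54) from E13.5 to E14.5. That of Sycp2 to Hormad2 was 0.768, 0.398, 0.529 and 2.11, a change of 1.33-fold (0.921 to 1.92) and then 3.98-fold (3.01 to 5.28) at the same steps. Each ratio is taken within a library and depends on neither the scaling nor the 18S share. Both were below 1 in the first 3 libraries and near 2 in the last, though at E11.5 they rest on 6 and 12 and on 25 and 17 counts. Where a ratio crosses 1 depends on the pair. Sycp3 was already above Hormad2 at E12.5 (3.53 and 1.91 TPM), and Sycp2 was still below Hormad1 at E14.5 (2.83 and 5.31 TPM).

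**Figure D2:**
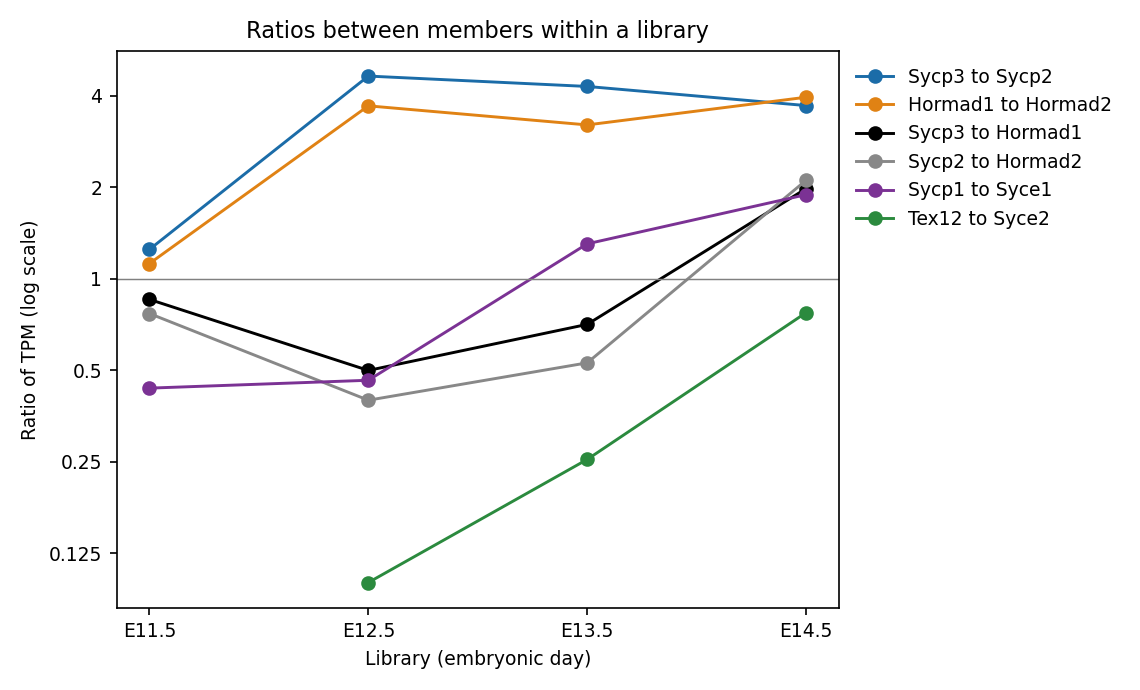
Ratio of TPM between 6 pairs of members within each library (y axis, log scale) by embryonic day (x axis); Tex12 to Syce2 has no point at E11.5, where Tex12 had 0 counts. Sycp3 to Hormad1 and Sycp2 to Hormad2 cross 1 between E13.5 and E14.5 (0.708 to 1.98 and 0.529 to 2.11), while Sycp3 to Sycp2 stays between 3.71 and 4.64 from E12.5.

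Sycp1 (mm10 chr3:102818499-102936305, minus strand) encodes the transverse filament and had 14, 121, 698 and 684 counts, or 0.409, 3.86, 17.6 and 36.3 TMM-scaled CPM. It was the only member with a change above 4-fold at E13.5 versus E12.5, 4.57-fold (3.77 to 5.59). The first step was 9.36-fold (5.41 to 17.8). At the last step its log2 fold change was 1.04 (0.89 to 1.20) on the TMM scale, but its direction turned to -0.019 on total counts and -0.58 on TPM. Against Syce1 within the library, its TPM ratio was 0.437, 0.463, 1.3 and 1.89, with changes of 2.81-fold (2.07 to 3.82) and 1.45-fold (1.15 to 1.84) at the last 2 steps.

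Syce1 (mm10 chr7:140777229-140788045, minus strand), a central element protein, had 14, 114, 234 and 158 counts and 0.409, 3.63, 5.91 and 8.39 TMM-scaled CPM. Only its first step passed 2-fold, at 8.82-fold (5.09 to 16.8). The log2 fold change was 0.70 (0.37 to 1.04) at E13.5 versus E12.5 and 0.50 (0.20 to 0.80) at E14.5 versus E13.5, where total counts gave -0.56 and TPM -1.11. Its binding partner Six6os1, listed as 4930447C04Rik and not a member, had 238, 458, 1180 and 1110 counts, so that the TPM ratio of Syce1 to Six6os1 was 0.204 at E11.5 and 0.863, 0.688 and 0.494 afterwards.

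Syce2 (mm10 chr8:84872111-84887446, plus strand) and Tex12 (mm10 chr9:50557148-50561268, minus strand) encode the pair of proteins that assemble together into the fibres of the central element. Syce2 had 287, 511, 761 and 354 counts, or 8.38, 16.3, 19.2 and 18.8 TMM-scaled CPM, and Tex12 had 0, 23, 87 and 123 counts, or 0, 0.733, 2.20 and 6.53 TMM-scaled CPM. Syce2 was already counted at E11.5 while Tex12 was not, and Syce2 made up 76.5% of all member counts in that library and 41.3%, 25.6% and 14% in the next 3. No daily step of Syce2 reached 2-fold on the TMM scale: 1.94-fold (1.68 to 2.26), 1.18-fold (1.05 to 1.32) and 0.978-fold (0.860 to 1.11). On total counts its first step was 1.12 on the log2 scale and its last -1.09.

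Tex12 was at least 8.37-fold higher at E12.5 than at E11.5, taking the floor of 3 counts per library for the 0, and the counting interval, which also covers the 23 counts, began at 6.28-fold. Its log2 fold change at the later steps was 1.58 (0.91 to 2.32) and 1.57 (1.16 to 1.98), the last of which was 0.51 on total counts and turned to -0.047 on TPM. The TPM ratio of Tex12 to Syce2 was 0, 0.10, 0.254 and 0.773. Its changes at the last 2 steps were 2.54-fold (1.56 to 4.27) and 3.04-fold (2.22 to 4.16), so the per-length levels of the pair came closer in each library.

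Syce3 (mm10 chr15:89390170-89410503, minus strand), which links SYCP1 to the central element, had the fewest counts: 0, 5, 11 and 18. At E12.5 it was at least 1.82-fold higher than at E11.5 by the floor of 3 counts, which did not reach the limit, with a counting interval from 1.001-fold, and 1.73-fold (0.559 to 6.40) at E13.5 versus E12.5 could not be told from no change at this depth. At E14.5 versus E13.5 it was 3.4-fold higher (1.54 to 8.06) on the TMM scale, with a log2 fold change of 0.71 on total counts and 0.16 on TPM.

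Per length, Syce2 had the highest TPM of the 9 members at E11.5 (9.42), E12.5 (22.3) and E13.5 (28.8), and Syce3 the lowest from E12.5 on (0.482, 0.920 and 1.03). At E11.5 the other 6 genes with counts lay between 0.167 and 0.382 TPM, and no neighbours in that order could be told apart by counting error. At E12.5 Hormad1 (7.07 TPM) followed Syce2, and then came Syce1 (4.14), Sycp3 (3.53), Tex12 (2.24), Sycp1 (1.92) and Hormad2 (1.91), and neighbours from Syce1 to Hormad2 had a ratio whose interval held 1. Sycp2 (0.760) lay apart from Hormad2, with a ratio of 2.51 (1.84 to 3.44), but was not told apart from Syce3, with a ratio of 1.58 (0.646 to 5.0). At E13.5 the order was Syce2, Hormad1 (13.2), Sycp1 (9.59), Sycp3 (9.36), Syce1 (7.36), Tex12 (7.33), Hormad2 (4.13), Sycp2 (2.18) and Syce3, and only the neighbours Sycp1 and Sycp3, and Syce1 and Tex12, had a ratio whose interval held 1. At E14.5 Sycp3 (10.5 TPM) and Syce2 (9.18 TPM) headed the list with a ratio of 1.14 (0.982 to 1.33), followed by Tex12 (7.10), Sycp1 (6.43), Hormad1 (5.31), Syce1 (3.4), Sycp2 (2.83), Hormad2 (1.34) and Syce3. There the neighbours Tex12 and Sycp1, Syce1 and Sycp2, and Hormad2 and Syce3 were not told apart either. The share of the summed member TPM held by Syce2 was 86.1% at E11.5 and 19.5% at E14.5, and that of Sycp3 was 2.20% and 22.3%.

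**Figure D3:**
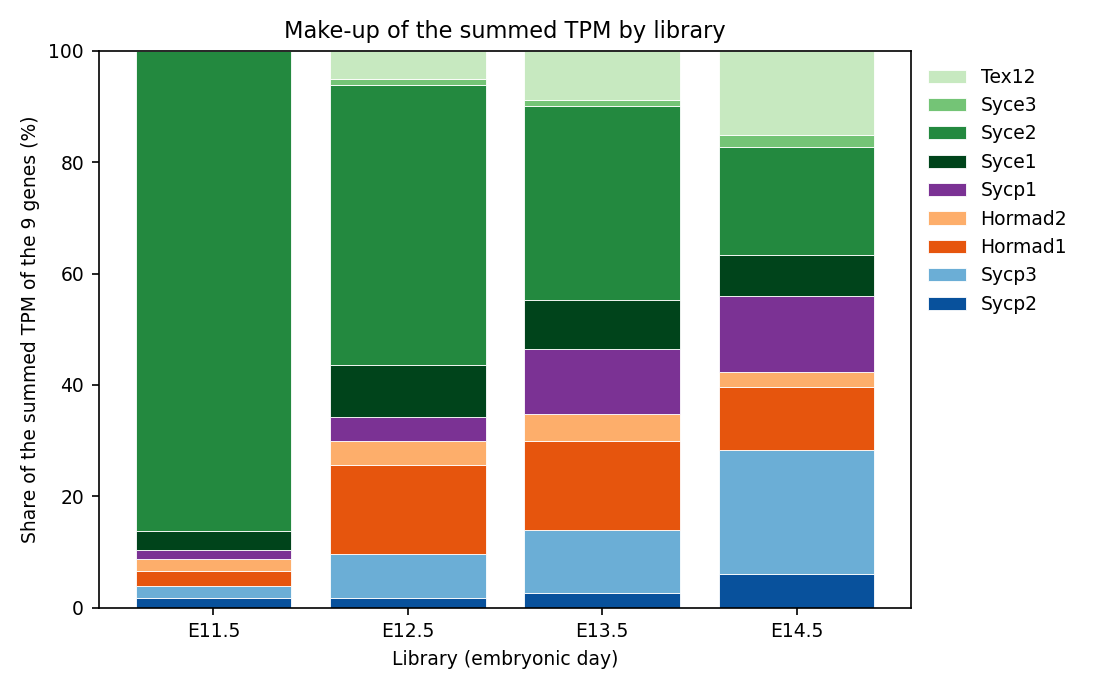
Share of the summed TPM of the 9 genes (y axis, %) taken by each gene in each library (x axis, embryonic day). The share of Syce2 is 86.1% at E11.5 and 19.5% at E14.5, and those of Sycp3 and Tex12 reach 22.3% and 15.1% at E14.5.

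At E12.5 versus E11.5, 7 of the 9 members were called higher and none lower, beside 8.08% of 20114 features called higher. Syce2 and Syce3 were not called on the TMM scale, but both were on total counts and on TPM. The median log2 fold change of the members was 3.23, or 3.07 with Tex12 and Syce3 at their lower bounds, beside a median near 0 over all features (-0.0027). The 12 germ cell markers moved at the same step: 10 were called higher, with a median of 2.53, and their summed level was 83.0 TMM-scaled CPM at E11.5 and 434.9 at E12.5, with no marker at 0 in either library. Of 8 mesonephros markers 6 were called lower, beside 8.21% of all features, and none higher, with sums of 183.1 and 28.7 TMM-scaled CPM. Lhx1 went the other way, with a log2 fold change of 0.64, and was not called. Most somatic markers of the gonad were also called higher at this step. These were 5 of 7 Sertoli cell genes (median 4.34), 5 of 5 Leydig cell genes (median 4.10) and 4 of 6 pregranulosa cell genes (median 1.44). The Leydig cell sums were 12.8 and 164.2 TMM-scaled CPM, with 1 gene at 0 at E11.5. The remaining pregranulosa cell genes, Wnt4 (-0.38) and Rspo1 (-0.42), were lower but not called. The part of these marker lists in the members' change was not tested. Relative to the germ cell helicase Ddx4 within a library, the TPM ratio of Sycp1 changed 0.486-fold (0.266 to 0.95), that of Sycp3 0.618-fold (0.260 to 1.79) and that of Hormad1 1.06-fold (0.568 to 2.15). Such ratios depend on the marker chosen. The log2 fold change of Ddx4 was 4.28, and the 12 markers ran from -0.50 (Nanos3) to 6.55 (Dazl).

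At E13.5 versus E12.5, 4 of 9 members were called higher (Sycp1, Sycp2, Sycp3 and Tex12), beside 2.54% of all features, and none lower. The members' median was 0.98 and that of all features 0.0052. None of the 12 germ cell markers was called in either direction, with a median of 0.062 and sums of 434.9 and 508.4 TMM-scaled CPM. All 5 Leydig cell genes were called higher (median 2.24, sums of 164.2 and 679.8 TMM-scaled CPM), and their part in the members' change was not tested. Relative to Ddx4, the TPM ratio of Sycp1 changed 3.36-fold (2.74 to 4.15), that of Sycp3 1.78-fold (1.34 to 2.41) and that of Hormad1 1.26-fold (1.06 to 1.5). The log2 fold change of Ddx4 was 0.44, and the 12 markers ran from -0.53 (Nanog) to 0.96 (Mael).

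At E14.5 versus E13.5, 5 of 9 members were called higher on the TMM scale (Sycp1, Sycp2, Sycp3, Syce3 and Tex12), beside 5.77% of all features, whereas on total counts 0 were higher and 2 lower (Syce2 and Hormad2) and on TPM 0 were higher and 4 lower (also Syce1 and Hormad1). Of 10 housekeeping genes, 8 were called lower on total counts at this step and 10 on TPM. The members' median was 1.04 on the TMM scale, -0.019 on total counts and -0.58 on TPM, beside medians of all features of -0.0098, -1.07 and -1.63. Germ cell markers had a median of -0.31 on the TMM scale, with 2 of 12 called higher (Mael and Tdrd1) and 2 lower (Nanog and Tfap2c), beside 1.46% of all features called lower, and on total counts 0 were higher and 8 lower. Relative to Ddx4 within the library, Sycp3 changed 4.12-fold (3.41 to 5.0), Sycp1 2.47-fold (2.17 to 2.80) and Hormad1 1.48-fold (1.25 to 1.74). On the TMM scale the log2 fold change of Ddx4 was -0.26, and the 12 markers ran from -2.33 (Tfap2c) to 1.23 (Mael). Mael (1.23) and Tdrd1 (1.18) changed more than Sycp1 (1.04) and Hormad1 (0.30), but less than Sycp3 (1.78). Ratios of Sycp1 and Hormad1 to these markers would thus fall over this step, and those of Sycp3 would climb. They were not computed.

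From E12.5 to E14.5, the longest interval with the same dissection, 7 of 9 members were called higher on the TMM scale, beside 7.94% of all features. The folds were 10.4 (8.16 to 13.54) for Sycp2, 9.41 (7.75 to 11.53) for Sycp1, 8.86 (5.68 to 14.6) for Tex12, 8.34 (6.40 to 11.1) for Sycp3 and 5.85 (2.15 to 20.7) for Syce3. These 5 were also called higher on total counts, and all of them but Syce3 on TPM. Syce1 at 2.31-fold (1.80 to 2.97) and Hormad1 at 2.11-fold (1.77 to 2.52) just passed 2-fold on the TMM scale but not on total counts or TPM, and on TPM their log2 fold change turned to -0.28 and -0.41. Hormad2 at 1.97-fold (1.49 to 2.62) and Syce2 at 1.15-fold (1.005 to 1.32) were not called, and on total counts their log2 fold changes were -0.055 and -0.83. On TPM they were -0.51 and -1.28, and Syce2 was called lower. Over the same interval 2 of 12 germ cell markers were called higher and 3 lower on the TMM scale (median 0.086), against 1 higher and 6 lower on total counts, and 5 of 5 Leydig cell genes higher (median 3.13). On the TMM scale 2.48% of all features were called lower. Of 10 housekeeping genes, 7 were called lower on total counts over this interval and 10 on TPM.

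**Figure D4:**
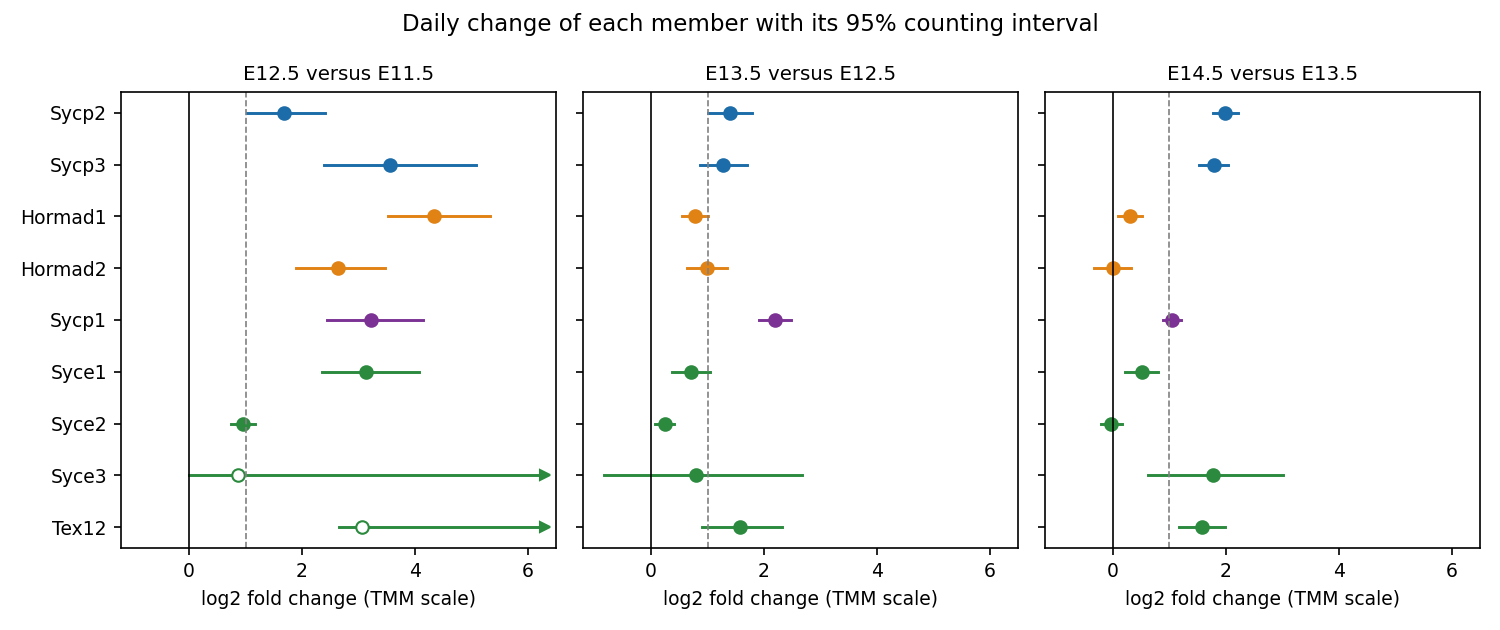
Log2 fold change on the TMM scale (x axis) of each member (y axis) at the 3 daily steps, with its exact 95% counting interval; an open point is a lower bound from the floor of 3 counts, an arrow an interval with no upper end, and the dashed line 2-fold. Among members with counts in both libraries, Hormad1 has the largest change at E12.5 (4.35) and Sycp2 at E14.5 (1.99), where Sycp1 turns to -0.019 on total counts.

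The other structural genes of the complex, axis and telomere attachment were followed beside the members. Of 15 listed genes 11 were matched and 9 passed the filter, and 3, 3 and 4 of 9 were called higher at the 3 daily steps and none lower on the TMM scale. Of all features, 8.08%, 2.54% and 5.77% were called higher at these steps, shares that also stand beside the lists that follow. The medians of this list were 0.48, 0.32 and 0.98, against 3.07, 0.98 and 1.04 for the members. The highest was Fkbp6 at E12.5, a gene needed for pairing in male meiosis, with 59 and 537 counts and a log2 fold change of 3.31, and Ankrd31, a cofactor of break formation, at both later steps, with 6, 40 and 136 counts and log2 fold changes of 2.38 and 2.83. The lowest was Ccdc36 (Iho1) at E12.5 (-0.27), Trip13, the ATPase that removes HORMADs from the axis, at E13.5 (-0.30) and Mei4 at E14.5 (-0.85), and none of these was called. On total counts the last step had Ankrd31 alone higher and 3 of 9 lower.

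Of the 4 meiotic cohesin genes, which hold sister chromatids at the axis, 1, 2 and 2 were called higher at the 3 steps on the TMM scale. Smc1b was highest at E12.5, with 57 and 645 counts and a log2 fold change of 3.62, and Stag3 lowest at -0.91, which was not called. Rad21l had 3, 1, 10 and 131 counts, and its step at E14.5 was 4.76 (3.86 to 5.88). Stag3 had 2863, 1393, 2581 and 10590 counts, or 83.5, 44.4, 65.2 and 562.5 TMM-scaled CPM, and was thus higher at E11.5 than at E12.5 and E13.5. Its step at E14.5 was 3.11 (3.05 to 3.17). At that step Rad21l and Stag3 were called higher on total counts and TPM too. The 18S share of the counts was 9.06%, 1.31%, 1.03% and 40.7% from E11.5 to E14.5. Stag3 was thus highest in the libraries with the largest 18S share, E14.5 and E11.5. A link between this share and the Stag3 counts was not tested, and rescaling a whole library cannot show one. Rec8 was the lowest at E14.5, at -0.45 on the TMM scale, and was called lower on total counts.

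Among 5 meiosis entry genes, 1, 2 and 2 were called higher on the TMM scale. Stra8, the retinoic acid target needed for meiotic entry, had 0, 3, 430 and 272 counts, a log2 fold change of 6.78 (5.27 to 9.11) at E13.5 versus E12.5, after the first step in which 7 members had been called. Rbm46 was the one called at E12.5 (1.21), and Meioc, listed as Gm1564, was called at E13.5 (3.86) with 27 and 496 counts. Meiosin, listed as Gm4969, was highest at E14.5 (1.33) on the TMM scale but was not called on total counts, and Ythdc2 was lowest at each step (-0.059, 0.19 and -0.20).

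Of 18 recombination genes, 4, 6 and 8 were called higher at the 3 steps on the TMM scale and 11 over E12.5 to E14.5, beside 7.94% of all features over that interval, with none lower. Tex11 was the highest at E12.5 with 6 and 116 counts (4.37), Mei1 at E13.5 with 2 and 15 counts (2.51, interval 0.47 to 5.74) and Spata22 at E14.5 with 10 and 54 counts (3.48). The lowest were Prdm9 (-0.41), Msh5 (-0.32) and Psmc3ip (-0.13), none of them called on the TMM scale. On total counts the last step had 5 higher and 3 lower, the latter being Psmc3ip, Mnd1 and Mlh3.

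**Figure D5:**
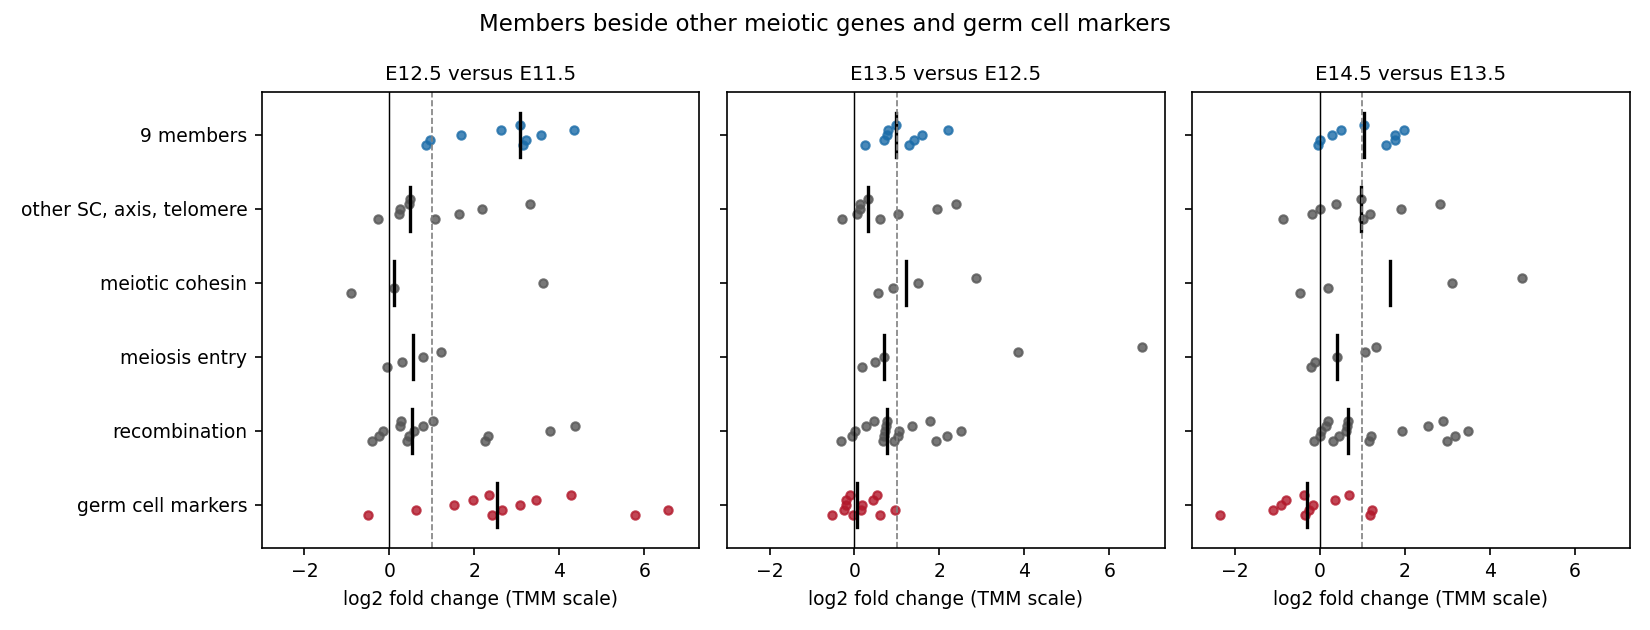
Log2 fold change on the TMM scale (x axis) of the 9 members, of other meiotic gene lists and of germ cell markers (rows) at each daily step, each point a gene and each black bar the median; the dashed line is 2-fold, and genes at or under 3 counts in both libraries have no point. The germ cell median is 2.53, 0.062 and -0.31 at the 3 steps and that of the members 3.07, 0.98 and 1.04; on total counts the last members' median is -0.019.

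The 10 genes outside the members whose 3 daily changes lay closest to the members' medians, among 14045 genes with at least 100 counts in some library, were Aoc3, M1ap, Hsd17b1, Dock3, Wfdc1, 8030474K03Rik, Inhba, AI427809, Tacr3 and Itih5. Their root mean square difference over the 3 steps ran from 0.158 to 0.394 on the log2 scale. Of the members, Syce1 (0.353) and Tex12 (0.460) lay nearest to the members' own median and Syce2 (1.43) and Syce3 (1.34) farthest. Aoc3, the closest, had 16, 119, 342 and 297 counts, and M1ap had 15, 114, 246 and 280. The measure rests on 4 libraries and is a description.

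Some members share bases or sequence with other genes. The deposited exons of Sycp3 overlap those of Chpt1 on the opposite strand by 80 bases (7.13% of its exon length), and those of Tex12 overlap Il18 by 93 bases (15.1%). Among GENCODE transcripts the shared stretch can be longer: a Sycp3 transcript of 1169 bases matches Chpt1 on the opposite strand at 100% over 420 bases. Chpt1 had 1305, 1097, 1319 and 548 counts where Sycp3 had 6 at E11.5, and Il18 had 6, 6, 18 and 15 where Tex12 had 0 to 123. Whether the counting used strand is not given in the sources used here, so reads in the shared bases cannot be assigned. Sycp2 shares 7 exonic bases with LOC102638934, which had at most 4 counts, while the span of Syce2 overlaps that of Gcdh, that of Sycp1 overlaps LOC102637043 and LOC102636928, and that of Syce1 overlaps LOC101056211, with 0 exonic bases in common. The processed pseudogene Gm15529 is 97.9% identical to Hormad1 over 994 bases and had 1, 30, 49 and 32 counts, 10.04% to 13.3% of those of Hormad1 from E12.5 on, and Sycp1-ps1 is 92.4% identical to Sycp1 over 2560 bases with 3, 0, 15 and 14 counts. A further copy of Hormad1, Gm7167, is 92.3% identical and had 1, 3, 2 and 1 counts. Counts of Hormad1 and Sycp1 are uncertain for this reason. The counts of the copies do not give the size of that uncertainty.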

How the data were processed

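The authors pooled gonads, prepared 1 stranded total RNA library with unique molecular identifiers (UMIs) per time point after rRNA depletion, aligned to mm10, collapsed duplicate reads by UMI, and then counted per gene. Counts per gene were used as deposited, and the deposited TPM, computed by the authors from these counts and exon lengths, was recomputed as a check. The deposited RPKM values were not used. The authors report that the long RNAs were identified from uniquely mapped reads. The counting settings for strand and for reads with several positions are not given in the sources used here.

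Features kept by edgeR's filterByExpr (20114 of 40999) were scaled by TMM over the 4 libraries (R 4.3.3, edgeR 4.0.16). Log2 fold changes used a prior count of 0.125, and intervals are exact Clopper-Pearson 95% intervals, conditional on the sum of both libraries' counts (Python 3.11.15, scipy 1.17.1). A gene at 0 was put at a floor of 3 counts per library, and no fold was given where both libraries were at or under it. With 1 library per time point the main values carry no test, and any difference compares libraries, as do the exact tests at a preset dispersion tried as alternatives. Ratios between members are conditional odds ratios of counts within libraries. Near copies were found with blastn 2.17.0 at 90% identity or more against GENCODE transcripts of the same genome build, and promoters came from RefSeq, GRCm38.p6.

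All 9 members are named, as are near copies, overlapping genes and the 10 genes of most similar pattern. At the daily steps the highest and lowest gene of each other meiotic list are named, and any that goes against the rest. The germ cell markers have their highest and lowest gene named. Of the mesonephros and gonadal somatic lists, only genes against the rest at E12.5 versus E11.5 are named. Genes named for a call, the member pairs and the motifs were chosen after values were seen. The members and lists were chosen with earlier results of these data known. Script steps were tested on simulated data. Alternatives were other scalings (total counts, DESeq2 1.42.0 size factors, TMM on 2 libraries, totals without rRNA and the top 10 genes, TPM), other filters, a 4-fold threshold, a prior count of 2 and edgeR's exact test at a preset biological coefficient of variation (BCV).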

Additional observations from a re-analysis of the deposited data

How the results depend on the processing

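The count of members called higher stayed within 1.5 times the value given in 41 combinations of comparison and setting and moved further in 11. No count moved that far with DESeq2 size factors, TMM on the 2 libraries alone, or totals without rRNA and each library's top 10 genes. The same held for the other filters, a prior count of 2 and a BCV of 0.1. With no filter, 4 members were called at E14.5 versus E13.5. Leaving out Syce2 (added after seeing the data) could not change a count, because Syce2 was called higher in no comparison on the main scale. Its combinations are among the 41. On total counts that step had 0 higher members. On the ratio of the deposited TPM it also had 0, and E14.5 versus E12.5 had 4, with Syce2 lower. With a 4-fold threshold, E13.5 versus E12.5 had 1 and E14.5 versus E13.5 had 0. With edgeR's exact test at a BCV of 0.2, E13.5 versus E12.5 had 1 and E14.5 versus E13.5 had 3; at a BCV of 0.4, E12.5 versus E11.5 had 2 and the other 3 comparisons had 0. Members called higher turned direction at E14.5 versus E13.5 for Sycp1 on total counts (-0.019) and on TPM (-0.58) and for Tex12 on TPM (-0.047), and at E14.5 versus E12.5 on TPM for Syce1 (-0.28) and Hormad1 (-0.41). Members not called also turned on both scales: at E14.5 versus E13.5 Hormad1 (-0.76 and -1.32) and Syce1 (-0.56 and -1.11), and at E14.5 versus E12.5 Hormad2 (-0.055 and -0.51) and Syce2 (-0.83 and -1.28). Total counts and TPM shift every gene of a library alike, by 1.07 and 1.63 on the log2 scale for the median gene at the last step, where 18S rRNA took 40.7% of the counts. Ratios between members within a library do not depend on the scaling. Which BCV fits these pools is not known from 1 library per time point. Depth limits Syce3 (at most 18 counts) and the E11.5 values, where 2 members had 0 counts and only Syce2 passed 100. No paired analysis was possible because each time point has 1 library.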
